A study of Homo sapiens with 8 samples.

Results

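The genes described here encode chaperones of the HSP90, HSP70 and HSP60 systems and 2 HSP90 partners. They were taken from a list of 10 symbols: HSP90AA1, HSP90AB1, HSPA4, HSPA4L, HSPA8, HSPD1, HSPE1, HSPH1, CHORDC1 and FKBP4. A gene was measured through probe sets annotated with its symbol alone, and its brightest probe set over all arrays stood for it. That left 9 genes of 19775 named on the arrays, and all 9 were among the 11678 bright enough to be tested. The 4 probe sets of HSPA8, the constitutive cytosolic HSP70, are annotated jointly with the small nucleolar RNA genes SNORD14C and SNORD14D, so HSPA8 was not analysed here.

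Quiescent cells, sorted as pyronin Y dull, were compared with cycling cells, sorted as pyronin Y bright, on 4 arrays each. Both fractions came from MALC, multicellular aggregates of the human B lymphoma line RL grown for 14 days, and both carry the t(14,18) translocation, which joins BCL2 to the immunoglobulin heavy chain locus. Pyronin Y binds RNA, so the sort itself selected cells by RNA content. All samples come from 1 cell line, and no label states that the 4 samples of a fraction are separate cultures. The p-values therefore reflect only the variation among these samples, and part of it may be technical.

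Chaperones bind unfolded or partly folded proteins and help them fold by cycles of ATP binding and hydrolysis. HSP70 proteins bind short hydrophobic stretches of new or damaged proteins, J-domain proteins bring them their clients, and nucleotide exchange factors such as the HSP110 proteins release them. HSP90 receives late folding intermediates, among them steroid receptors and many kinases, with the help of co-chaperones. In the mitochondrial matrix, HSP60 and its lid HSP10 form a chamber that encloses 1 client at a time. Many of these genes are induced by heat shock factors, which bind repeated GAA units in promoters.

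Promoter windows are shown because 5 of the 9 listed genes with a window share a pattern that is rare in the genome. The windows, from RefSeq on GRCh38.p14, run from 250 bases before a start site to 50 after it. FKBP4 has no window in the table. The pattern GAANNTTCNNGAA, 3 GAA units in alternating direction and the core of a heat shock element, was searched on both strands. It was found in a window of HSP90AA1, HSP90AB1, HSPA8, HSPD1 and CHORDC1, against 0.490% of 35116 windows and 0.608% of 27305 genes. Overlapping matches were counted apart, which gave 1 match for HSP90AA1, 2 each for HSP90AB1, HSPA8 and HSPD1, and 3 for CHORDC1. HSPE1 and HSPD1 lie head to head on chromosome 2, with their start sites 539 bases apart, or 105 bases apart for the other HSPD1 start. The HSPE1 window holds the E-box CACGTG, the pattern bound by MYC and related factors, which occurs in 7.26% of windows. A second HSPD1 window overlaps it by 204 bases and holds the same site. Capitals mark these patterns. A match describes letters, not binding, and binding was not measured.
HSPE1, chr2:197500129-197500428, plus strand: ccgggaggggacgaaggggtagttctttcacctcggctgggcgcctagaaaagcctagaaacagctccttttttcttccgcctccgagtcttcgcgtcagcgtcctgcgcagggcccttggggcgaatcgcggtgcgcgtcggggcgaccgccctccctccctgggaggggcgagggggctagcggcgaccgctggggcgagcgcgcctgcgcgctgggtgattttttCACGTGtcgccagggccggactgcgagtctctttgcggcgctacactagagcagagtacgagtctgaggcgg
HSPD1, chr2:197499791-197500090, minus strand: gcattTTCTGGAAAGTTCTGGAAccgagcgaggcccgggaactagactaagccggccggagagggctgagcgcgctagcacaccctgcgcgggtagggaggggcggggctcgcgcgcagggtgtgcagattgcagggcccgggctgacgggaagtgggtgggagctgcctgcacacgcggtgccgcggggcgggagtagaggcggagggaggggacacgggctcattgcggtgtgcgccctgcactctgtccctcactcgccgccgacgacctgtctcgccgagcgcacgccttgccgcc
HSP90AA1, chr14:102086995-102087294, minus strand: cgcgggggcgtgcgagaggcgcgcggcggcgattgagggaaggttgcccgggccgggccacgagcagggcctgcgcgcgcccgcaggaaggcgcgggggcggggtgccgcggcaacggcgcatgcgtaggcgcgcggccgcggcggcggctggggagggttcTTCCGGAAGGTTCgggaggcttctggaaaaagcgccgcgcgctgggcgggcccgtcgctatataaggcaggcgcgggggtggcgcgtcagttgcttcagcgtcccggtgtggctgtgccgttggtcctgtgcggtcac
HSP90AB1, chr6:44247693-44247992, plus strand: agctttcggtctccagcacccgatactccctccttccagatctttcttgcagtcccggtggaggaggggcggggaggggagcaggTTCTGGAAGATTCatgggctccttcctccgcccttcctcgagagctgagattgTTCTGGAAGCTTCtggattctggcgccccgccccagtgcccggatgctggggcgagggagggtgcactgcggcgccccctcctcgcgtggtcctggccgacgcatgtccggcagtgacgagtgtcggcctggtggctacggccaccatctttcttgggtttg
CHORDC1, chr11:90223000-90223299, minus strand: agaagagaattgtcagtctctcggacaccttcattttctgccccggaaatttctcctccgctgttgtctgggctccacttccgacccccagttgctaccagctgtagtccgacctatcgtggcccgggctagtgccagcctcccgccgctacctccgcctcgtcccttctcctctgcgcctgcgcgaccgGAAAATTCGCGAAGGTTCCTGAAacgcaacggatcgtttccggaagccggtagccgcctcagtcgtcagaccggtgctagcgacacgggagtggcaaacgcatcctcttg

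The arrays carried 54675 probe sets and shared a trimmed mean of 500.1, set by the authors' scaling. Their medians were 103.4 to 113.4 on quiescent and 71.9 to 97.9 on cycling arrays, without overlap. All values are MAS5 intensities, relative to the other transcripts on the same array and not an amount per cell. The number of arrays limits the precision. Proliferation markers separated the fractions: MKI67 averaged 362 ± 188 in quiescent and 1899 ± 388 in cycling cells (SD, n = 4 each), a log2 change of -2.52, TOP2A differed by -3.28 and CCNB1 by -2.26. All 6 proliferation markers listed were called lower, and their summed intensity was 7782 to 11881 on quiescent and 37074 to 46020 on cycling arrays. B cell markers with a probe set, 7 of 8 and MS4A1, CD79A and PAX5 among them, all passed the filter on dim genes. None of these markers was called with arrays as deposited. Their sum was 66025 to 88480 on quiescent and 70317 to 82354 on cycling arrays. Above the filter were 2 of 5 T cell markers (sums of 207 to 449 on quiescent and 327 to 472 on cycling arrays), 1 of 5 myeloid markers (312 to 449 and 185 to 461) and 4 of 6 stromal or epithelial markers (983 to 1429 and 606 to 959), and none of these was called. No marker listed was at 0, and the dimmest averaged 16.1. The ratio of 3′ to 5′ control probe sets, which rises as RNA shortens, was higher in quiescent cells for ACTB, at 2.57 ± 0.18 in quiescent and 2.02 ± 0.20 in cycling cells on the log2 scale (exact permutation p = 0.0286). For GAPDH it was 0.11 ± 0.02 in quiescent and -0.05 ± 0.09 in cycling cells (exact permutation p = 0.0286). The part of these ratios in the differences below was not tested, and neither was that of the dim signal from markers of other cell types. Cycling array 2 was the cycling array most like the quiescent ones (r of 0.940 to 0.953 over the genes tested).

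Transcripts of the listed chaperones were lower in quiescent cells. The list was chosen with earlier results of these data known, so its count beside all genes is a description and no test. Of the 9 genes, 8 were called lower, 0 were called higher and 1, HSPH1, was not called, where a call is a limma adjusted p under 0.05 over all genes tested. Among all 11678 genes, 15.4% were called lower and 12.2% higher. The median log2 difference of the 9 genes was -0.68, against 0.08 over all genes, and each of the 9 lay below the median gene. Intensities of the fractions did not overlap for 7 of the 9 genes, the exceptions being HSP90AB1 and HSPH1, and 15.4% of all genes were lower without overlap. Within each of the sample numbers 1 to 4, all 9 were lower in quiescent cells, which for the 7 without overlap follows from that. The share of all genes lower in every number was not computed. The differences within a number ran from -1.84 to -1.15 for HSPE1, from -1.53 to -0.76 for HSPA4L and from -0.34 to -0.09 for HSPD1, and 7 of the 9 genes differed least in number 2. In bulk samples, fewer cells of a type and less RNA per cell cannot be told apart.

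**Figure D1:**
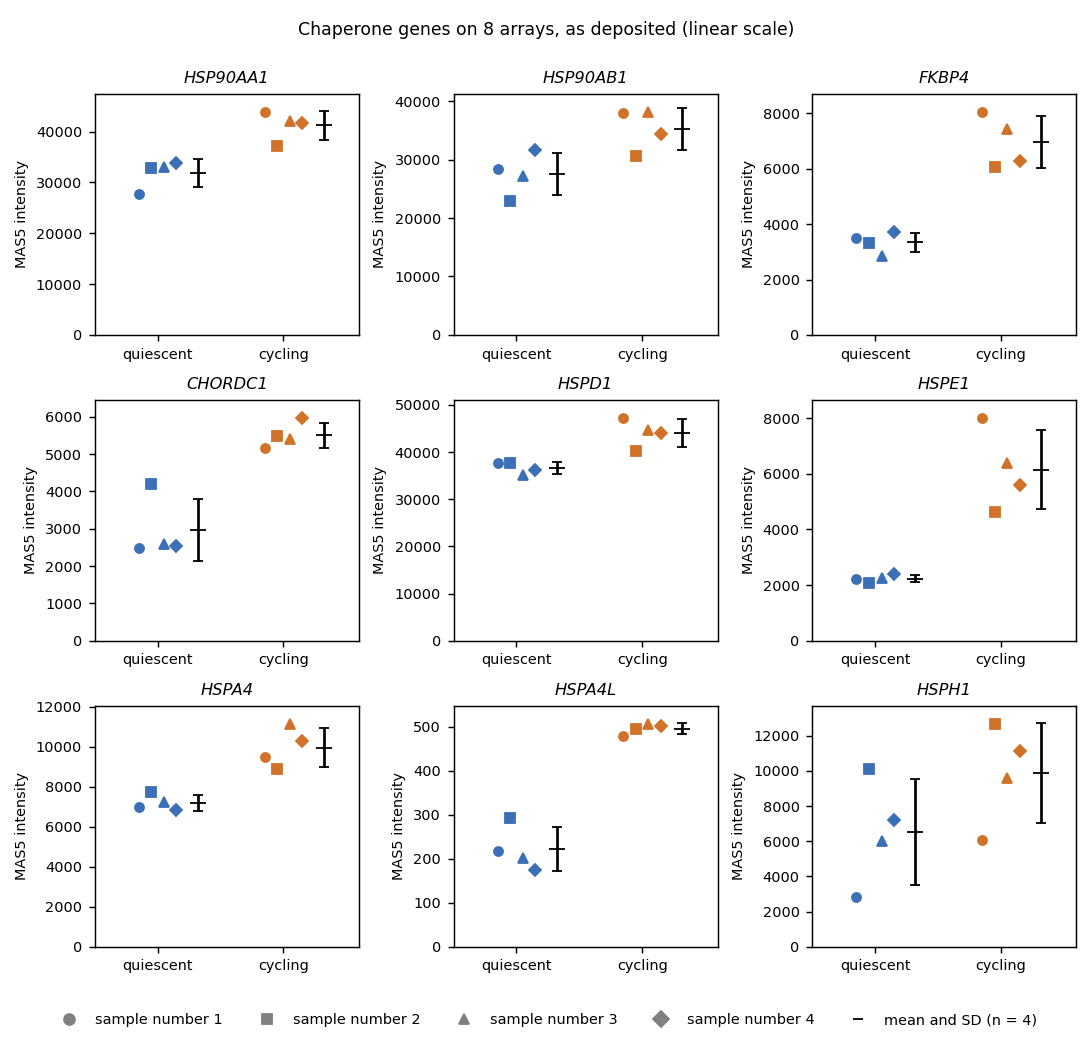
MAS5 intensity (linear axis from 0) of the 9 chaperone genes on each of the 4 quiescent (left) and 4 cycling (right) arrays, with marker shapes for the sample numbers and bars for mean and SD. HSPE1 lies between 2087 and 2386 on quiescent and between 4624 and 8011 on cycling arrays, whereas HSPH1 overlaps and is lowest on sample number 1 in both fractions.

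HSPE1 encodes HSP10, the lid of the mitochondrial HSP60 chamber, and had the largest difference of the 9 genes. Its only probe set, 205133_s_at, measured 2231, 2087, 2241 and 2386 on quiescent arrays 1 to 4, against 8011, 4624, 6379 and 5591 on cycling arrays 1 to 4. The quiescent arrays lay close together, and the dimmest cycling array was above all of them. Means were 2236 ± 122 in quiescent and 6151 ± 1433 in cycling cells (SD, n = 4 each), a log2 change of -1.43 (SE 0.16), or 2.70-fold lower (limma adjusted p = 4.98e-05). Only 2.00% of all genes tested had a lower difference. HSPE1 was called under every alternative run.

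HSPD1 encodes HSP60, the chamber itself. Its brightest probe set, 200807_s_at, gave 37689, 37632, 35212 and 36104 in quiescent samples 1 to 4 and 47246, 40165, 44654 and 44081 in cycling samples 1 to 4. The fractions did not overlap, but cycling sample 2 came near the quiescent range. HSPD1 averaged 36659 ± 1212 in quiescent and 44037 ± 2925 in cycling cells (SD, n = 4 each), a log2 change of -0.26 (SE 0.08, limma adjusted p = 0.0215), or 1.20-fold lower. The call was lost without quiescent array 3 or 4 or cycling array 1, 3 or 4 (limma adjusted p of 0.0539 to 0.0693). A dimmer HSPD1 probe set, 200806_s_at, read 12201, 9131, 9049 and 11260 in quiescent samples 1 to 4, against 25885, 15283, 22614 and 16641 in cycling samples 1 to 4. It differed by -0.93 (SE 0.16, limma adjusted p = 0.00144), so that 2 probe sets of 1 gene gave differences of unlike size.

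The HSPE1 and HSPD1 differences were compared within arrays, where scaling cancels. The difference of HSPE1 minus that of HSPD1 was -1.17 on the log2 scale (SE 0.13), with no overlap between fractions. The exact permutation p was 0.0286, the smallest that 70 assignments of 4 against 4 arrays allow, and 0.0571 after adjustment over 6 such contrasts. The contrast therefore missed the threshold. With probe sets averaged, dim ones included, it was -1.35 (adjusted exact permutation p = 0.171). With HSPD1 taken through 200806_s_at, an alternative chosen after seeing the data, it was -0.50 (SE 0.11, exact permutation p = 0.0286, 0.0571 after adjustment), so its size depends on the HSPD1 probe set.

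HSP90AA1 encodes the inducible and HSP90AB1 the constitutive cytosolic HSP90. HSP90AA1 measured 27801, 32922, 33006 and 33875 in quiescent samples 1 to 4 and 43897, 37198, 42141 and 41742 in cycling samples 1 to 4. All quiescent values lay below all cycling values, with quiescent sample 1 apart at the low end. The means were 31901 ± 2767 in quiescent and 41245 ± 2856 in cycling cells (SD, n = 4 each), a log2 change of -0.37 (SE 0.09, limma adjusted p = 0.00753), or 1.29-fold lower.

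For HSP90AB1 the values were 28347, 22920, 27258 and 31715 in quiescent samples 1 to 4, against 38047, 30560, 38177 and 34436 in cycling samples 1 to 4. Quiescent sample 4 was above cycling sample 2, so the fractions overlapped. HSP90AB1 averaged 27560 ± 3629 in quiescent and 35305 ± 3607 in cycling cells (SD, n = 4 each), a log2 change of -0.36 (SE 0.11, limma adjusted p = 0.0261), or 1.28-fold lower. That call was lost without quiescent array 2 or 3 or cycling array 1, 3 or 4 (limma adjusted p of 0.0546 to 0.0829). The differences of the HSP90 genes were alike in size (within-array contrast -0.01, SE 0.12, exact permutation p = 0.943), which does not show that they are equal.

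HSP90AA1, HSP90AB1 and HSPD1 are among the brightest transcripts on the arrays, at percentiles 99.5, 99.4 and 99.7 of the genes tested by mean level. Of the 168 genes at or above an intensity of 20000, 13.7% were called lower and 5.36% had a log2 change of -0.5 or below, against 15.7% of all genes. Their median difference was 0.07. Several dimmer probe sets of HSP90AA1 and HSP90AB1 gave larger differences. For HSP90AA1, probe set 211969_at read 6349, 5994, 7423 and 10580 in quiescent samples 1 to 4, against 13958, 10808, 15010 and 13593 in cycling samples 1 to 4. Its fractions did not overlap, and it differed by -0.84 (SE 0.17, limma adjusted p = 0.00291). Probe set 211968_s_at of HSP90AA1, at 18684 ± 3275 in quiescent and 27964 ± 4673 in cycling cells, differed by -0.58 (limma adjusted p = 0.00829), whereas 210211_s_at differed by -0.25 and was not called (limma adjusted p = 0.053). For HSP90AB1, probe set 214359_s_at read 21606, 13904, 16569 and 21402 in quiescent samples 1 to 4, against 31682, 22136, 30394 and 24051 in cycling samples 1 to 4. These did not overlap, with a difference of -0.57 (limma adjusted p = 0.0167), while 1557910_at differed by -0.86 with wide spread and was not called (SE 0.34, limma adjusted p = 0.088). Whether bright probe sets were compressed was not tested.

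FKBP4 encodes FKBP52, an immunophilin that joins HSP90 in steroid receptor complexes. It measured 3490, 3308, 2861 and 3703 in quiescent samples 1 to 4, against 8058, 6066, 7452 and 6277 in cycling samples 1 to 4. No quiescent value came near the cycling range. FKBP4 averaged 3341 ± 358 in quiescent and 6963 ± 951 in cycling cells (SD, n = 4 each), a log2 change of -1.06 (SE 0.13, limma adjusted p = 1.25e-04), or 2.08-fold lower. A second bright FKBP4 probe set, 200894_s_at, differed by -0.94 and was called too. It read 2698, 2250, 2710 and 3148 in quiescent samples 1 to 4 and 6405, 3393, 5928 and 5482 in cycling samples 1 to 4, with cycling sample 2 nearest to the quiescent range. The 2 dim FKBP4 probe sets were not called (0.74 and -0.17). The within-array contrast of FKBP4 minus HSP90AB1 was -0.69 (SE 0.11, exact permutation p = 0.0286, 0.0571 after adjustment), without overlap, but 0.24 with all passing probe sets averaged.

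CHORDC1 encodes morgana, a zinc-binding HSP90 partner. Its brightest probe set, 218566_s_at, gave 2486, 4195, 2604 and 2539 in quiescent samples 1 to 4 and 5165, 5488, 5401 and 5969 in cycling samples 1 to 4. Quiescent sample 2 stood above the other quiescent samples but below every cycling sample. The means were 2956 ± 827 in quiescent and 5506 ± 338 in cycling cells (SD, n = 4 each), a log2 change of -0.93 (SE 0.16, limma adjusted p = 0.00121), or 1.91-fold lower. The within-array contrast with HSP90AB1 was -0.57 (SE 0.29, exact permutation p = 0.143), and 0.60 with probe sets averaged. A dim CHORDC1 probe set, 239436_at, went the other way: it read 331, 664, 491 and 413 in quiescent samples 1 to 4 and 186, 346, 232 and 215 in cycling samples 1 to 4. It was called higher by 0.95 (SE 0.25, limma adjusted p = 0.0151) as deposited and by 0.71 with quantile normalization (limma adjusted p = 0.0482), but not with centred arrays (0.54, limma adjusted p = 0.106). With both CHORDC1 probe sets averaged, the difference was 0.01 (limma adjusted p = 0.978), so the CHORDC1 call rests on its brightest probe set.

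HSPA4, HSPA4L and HSPH1 encode the HSP110 proteins, relatives of HSP70 that act as its nucleotide exchange factors. HSPA4 measured 6970, 7765, 7264 and 6863 in quiescent samples 1 to 4, against 9499, 8907, 11161 and 10316 in cycling samples 1 to 4. The fractions did not overlap. HSPA4 averaged 7215 ± 404 in quiescent and 9971 ± 982 in cycling cells (SD, n = 4 each), a log2 change of -0.46 (SE 0.11, limma adjusted p = 0.00605), or 1.38-fold lower. Of its 3 other probe sets, 1 was called lower (-0.54), and 2 dim ones were not called (0.15 and -0.04). The called set, 211015_s_at, read 4839, 4567, 4536 and 4494 in quiescent samples 1 to 4 and 6704, 5879, 8194 and 6253 in cycling samples 1 to 4, again without overlap.

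HSPA4L was dim, with 218, 292, 202 and 174 in quiescent samples 1 to 4 and 478, 496, 507 and 503 in cycling samples 1 to 4. Cycling values were almost level and all above the quiescent ones. HSPA4L averaged 221 ± 50.4 in quiescent and 496 ± 12.8 in cycling cells (SD, n = 4 each), a log2 change of -1.19 (SE 0.20, limma adjusted p = 8.97e-04), or 2.28-fold lower. The within-array contrast of HSPA4L minus HSPA4 was -0.73 (SE 0.14, exact permutation p = 0.0286, 0.0571 after adjustment). With probe sets averaged it was -0.83 (adjusted exact permutation p = 0.257). A dimmer HSPA4L probe set, 1556194_a_at, differed by -0.91 with overlap and was not called (SE 0.53, limma adjusted p = 0.221).

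HSPH1, the heat-inducible HSP110 also known as HSP105, was the 1 gene without a call in the main fit, which left sample numbers out. It measured 2821, 10122, 6016 and 7225 in quiescent samples 1 to 4, against 6047, 12688, 9609 and 11122 in cycling samples 1 to 4. Sample number 1 was the lowest and number 2 the highest in both fractions, and the fractions overlapped. HSPH1 averaged 6546 ± 3022 in quiescent and 9867 ± 2840 in cycling cells (SD, n = 4 each), a log2 change of -0.68 (SE 0.34, 95% interval -1.44 to 0.07, limma adjusted p = 0.165). Without both number 1 arrays, an alternative chosen after seeing the data, it was -0.54 (limma adjusted p = 0.0369), and 7 of the 9 genes were called lower beside 14.6% of all genes. Within sample numbers 1 to 4 the differences were -1.10, -0.33, -0.68 and -0.62. With the sample number as a block, HSPH1 was called lower (limma adjusted p = 5.63e-04), as were all 9 genes, beside 19.1% of all genes. No label states that same-numbered samples belong together. The difference was -0.32 without quiescent array 1 alone (limma adjusted p = 0.343). HSPH1 and HSPA4 did not differ detectably in their change (within-array contrast -0.22, SE 0.44, exact permutation p = 0.6). A dimmer HSPH1 probe set, 208744_x_at, read 1073, 1988, 2021 and 2137 in quiescent samples 1 to 4 and 2346, 3187, 3511 and 3177 in cycling samples 1 to 4. It did not overlap and was called lower (-0.79, limma adjusted p = 0.0142).

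The spread of HSPH1 within fractions was 0.64 on the log2 scale, and 8.53% of genes varied as much, against 0.08 to 0.26 for the other 8 genes. Being lowest on sample number 1 in both fractions was not particular to HSPH1: it held for 2 of the 9 chaperone genes (HSPH1 and CHORDC1), 15 of the 87 related genes (17.2%) and 15.0% of all genes tested. The inducible HSP90AA1, HSPD1 and HSPE1 had their highest cycling value on number 1 (43897, 47246 and 8011). Among quiescent arrays, number 1 was the lowest for HSP90AA1 (27801), the highest for HSPD1 (37689) and neither for HSPE1 (2231). The following genes of the related lists, also known to respond to heat, shared with HSPH1 the lowest value on sample number 1. They were picked after their values were seen, so they describe no rule. Unlike HSPH1, DNAJB1 and DNAJA1 were not highest on number 2. BAG2 was highest on number 2 among quiescent arrays (2211) but on number 4 among cycling arrays (3331). HSPA6, a strictly inducible HSP70, measured 117, 1595, 964 and 864 in quiescent samples 1 to 4 and 56.5, 1765, 1581 and 1640 in cycling samples 1 to 4. BAG3, an HSP70 exchange factor, gave 246, 1269, 760 and 804 in quiescent samples 1 to 4 and 289, 1785, 1314 and 1676 in cycling samples 1 to 4. DNAJB1, a J-domain partner of HSP70, gave 11324, 21255, 24377 and 28922 in quiescent samples 1 to 4 and 11074, 23997, 27135 and 25301 in cycling samples 1 to 4. DNAJA1, another J-domain partner, ran from 15788 on quiescent array 1 to 32640 on quiescent array 4, and from 19923 on cycling array 1 to 36600 on cycling array 3. BAG2, an HSP70 cofactor, was lowest on sample number 1 as well, at 1041 on the quiescent and 1816 on the cycling array. All the genes picked were lowest on sample number 1 in both fractions, and HSPA6, BAG3, DNAJB1 and DNAJA1 were not called between fractions. The labels give sample numbers only, and what sets number 1 apart was not tested.

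**Figure D2:**
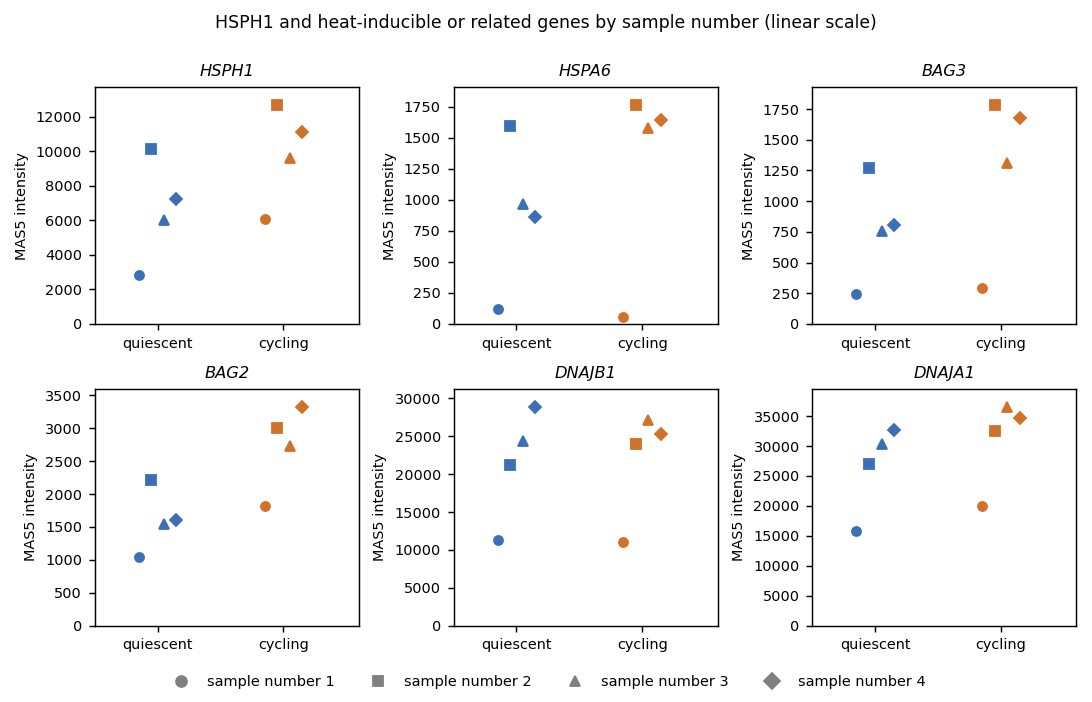
MAS5 intensity (linear axis from 0) of HSPH1, HSPA6, BAG3, BAG2, DNAJB1 and DNAJA1 on quiescent (left) and cycling (right) arrays, with marker shapes for the sample numbers 1 to 4. HSPH1 has 2821 on quiescent and 6047 on cycling array 1, the lowest value of its fraction in each case.

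The size of these differences depended on the scaling of the arrays. The median probe set is dim, and centring arrays on it lowered every difference by 0.413, so that the median gene lay at -0.33 in place of 0.08. With centred arrays all 9 genes were called lower, HSPH1 included (-1.09, limma adjusted p = 0.0265), with a median of -1.09, and 32.5% of all genes were called lower and 2.80% higher. With quantile normalization 8 of 9 were called lower, with a median of -0.55, against 16.4% of all genes lower and 10.6% higher and a median gene at -0.04. The differences of all 9 genes were negative under each scaling and below the median gene of that scaling. Of the 7 B cell markers tested, 4 were called lower with centred arrays and 0 with quantile normalization.

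**Figure D3:**
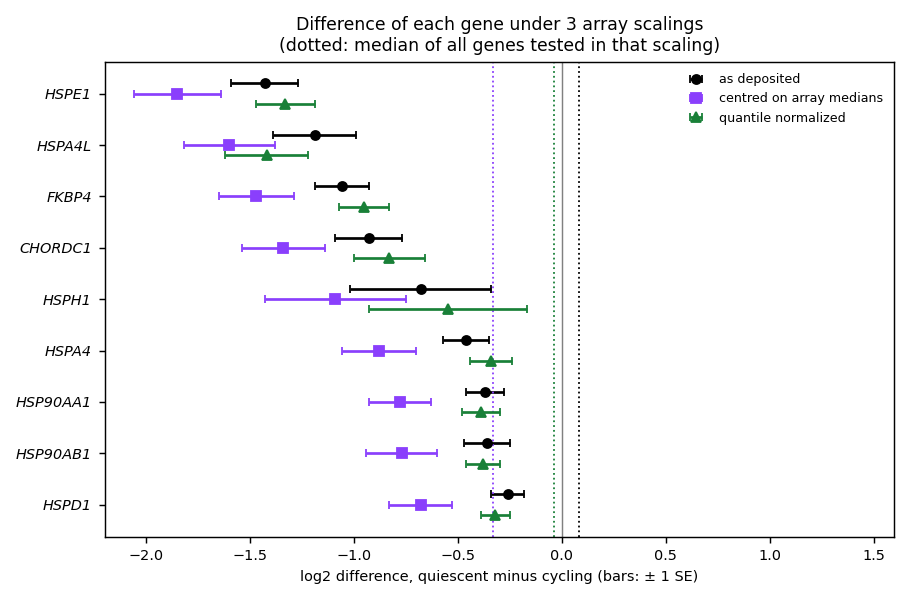
Log2 difference (quiescent minus cycling, ± 1 SE) of the 9 chaperone genes with arrays as deposited, centred on their medians or quantile normalized; dotted lines mark the median gene in each scaling. HSPE1 lies lowest under deposited scaling (-1.43) and HSPD1 nearest to 0 (-0.26), and every gene lies left of the dotted line of its scaling.

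Of 28 probe sets of the 9 genes, 27 passed the filter when tested singly. As deposited, 15 were called lower, 1 was called higher and 11 were not called, against 12.0% lower and 14.3% higher over all probe sets. The 17 probe sets above an intensity of 2000 all had negative differences, and 14 were called lower. Of the 10 dimmer ones, 1 was called lower and 1 higher. With centred arrays 18 of the 27 were called lower and 0 higher, against 26.5% lower and 3.39% higher over all probe sets. With all passing probe sets of a gene averaged, 4 of the 9 genes were called lower, beside 1596 of 11678 genes. The calls of HSPA4 (-0.22, limma adjusted p = 0.119), HSPD1 (-0.09, limma adjusted p = 0.626), FKBP4 (-0.36, limma adjusted p = 0.0644) and CHORDC1 were lost. With limma's plain eBayes, without trend or robust fitting, 5 of the 9 were called lower, beside 1561 of 11678 genes. That fit lost the calls of HSP90AA1 (limma adjusted p = 0.0601), HSP90AB1 (limma adjusted p = 0.104) and HSPD1 (limma adjusted p = 0.128). HSPA4L did not pass a stricter filter at the 75th percentile. A probe set whose name ends in _s_at or _x_at can also match related transcripts, and HSP90AA1, HSP90AB1, HSPD1 and HSPE1 have processed pseudogenes, so the values of such sets can include them.

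**Figure D4:**
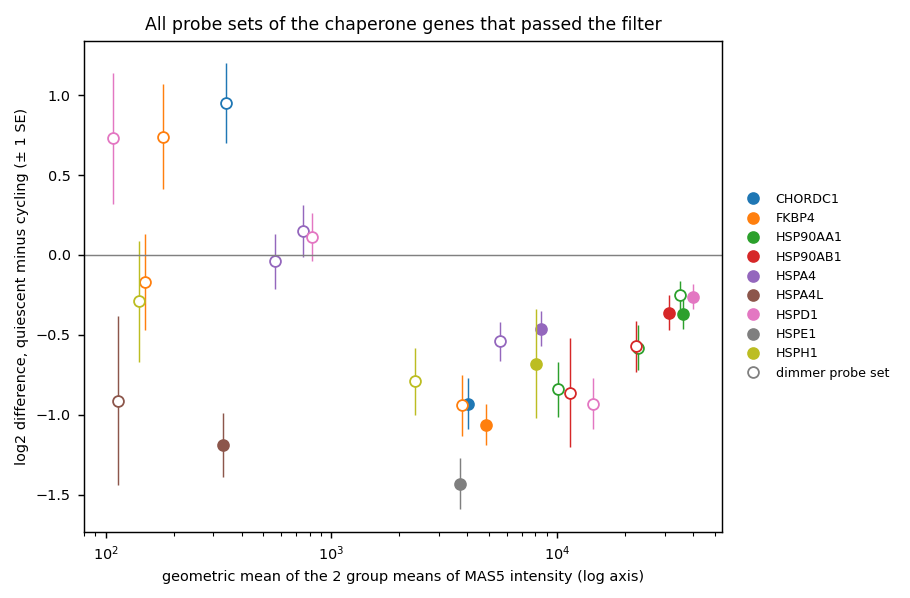
Log2 difference (quiescent minus cycling, ± 1 SE) of each probe set of the 9 genes that passed the filter, against the geometric mean of its group means of MAS5 intensity on a log axis; filled points are the brightest set of a gene, open points the dimmer ones. Sets above 2000 all lie below 0, and the dimmer ones lie on both sides.

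In the wider chaperone network, of 87 related genes tested, 20 were called lower and 2 higher (15.4% and 12.2% of all genes), with a median of -0.21. Centred arrays gave 46 lower and 0 higher, beside 32.5% and 2.80% of all genes. Quantile normalization gave 18 lower and 4 higher, beside 16.4% and 10.6% of all genes. Among HSP90 paralogs and co-chaperones, 5 of 19 were called lower and 0 higher. TRAP1, the mitochondrial HSP90, averaged 2440 ± 566 in quiescent and 6556 ± 635 in cycling cells, a log2 change of -1.45 (limma adjusted p = 5.49e-05), and STIP1, the adaptor between HSP70 and HSP90, differed by -0.75 (limma adjusted p = 0.00223).

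Mitochondrial chaperones and proteases had 6 of 13 called lower and 0 higher, with a median of -0.48. Leaving out single arrays gave 3 to 8 (3 without quiescent array 3, quiescent array 4 or cycling array 4, 4 without quiescent array 2 or cycling array 1). Centring gave 11, beside 32.5% of all genes. Besides TRAP1, those called lower as deposited included the inner membrane protease subunit AFG3L2 (-0.96) and the matrix HSP70 HSPA9 (-0.58). HSPA9 and HSPA14, a ribosome-associated HSP70 (-0.66), were the 2 of 8 other HSP70 genes called. Among 11 HSP70 exchange and cofactor genes, HSPBP1 (-0.96) and BAG2 (-0.78) were called lower, and the fractions overlapped for both. That count of 2, beside 15.4% of all genes, was 0 without cycling array 4 or with plain eBayes. It was 1 without quiescent array 2, 3 or 4 or cycling array 3. With centred arrays it was 6, beside 32.5% of all genes. Of 37 J-domain genes, 6 were called lower, DNAJC15 (-0.87) and DNAJC9 (-0.84) the most, and 2 higher, beside 15.4% and 12.2% of all genes. Those called higher were DNAJB4 (0.74, limma adjusted p = 0.0485) and DNAJC5 (0.55, limma adjusted p = 0.0251), and neither was called with centred arrays. No J-domain gene was called higher without quiescent array 3 or 4 or cycling array 3 or 4, 1 was without cycling array 1, and 4 were called lower without cycling array 3 or 4, all by limma.

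Of the heat shock factor genes, HSF1, the main activator of the heat shock response, was dim and not called, at 254 ± 26.6 in quiescent and 251 ± 61.3 in cycling cells (log2 difference 0.05, limma adjusted p = 0.899). HSF4 was not called (-0.02), and HSF2 had no probe set with its symbol alone. HSBP1, which binds and restrains HSF1, was called lower (-0.44, limma adjusted p = 0.034), but not with quantile normalization (limma adjusted p = 0.0812), no filter, plain eBayes or in 5 of the 8 fits with 1 array left out (quiescent 1, 3 or 4, cycling 2 or 4). Only 2 of 9 small heat shock protein genes passed the filter, and neither HSPB6 (1.43, limma adjusted p = 0.088) nor HSPB8 (0.78, limma adjusted p = 0.406) was called.

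**Figure D5:**
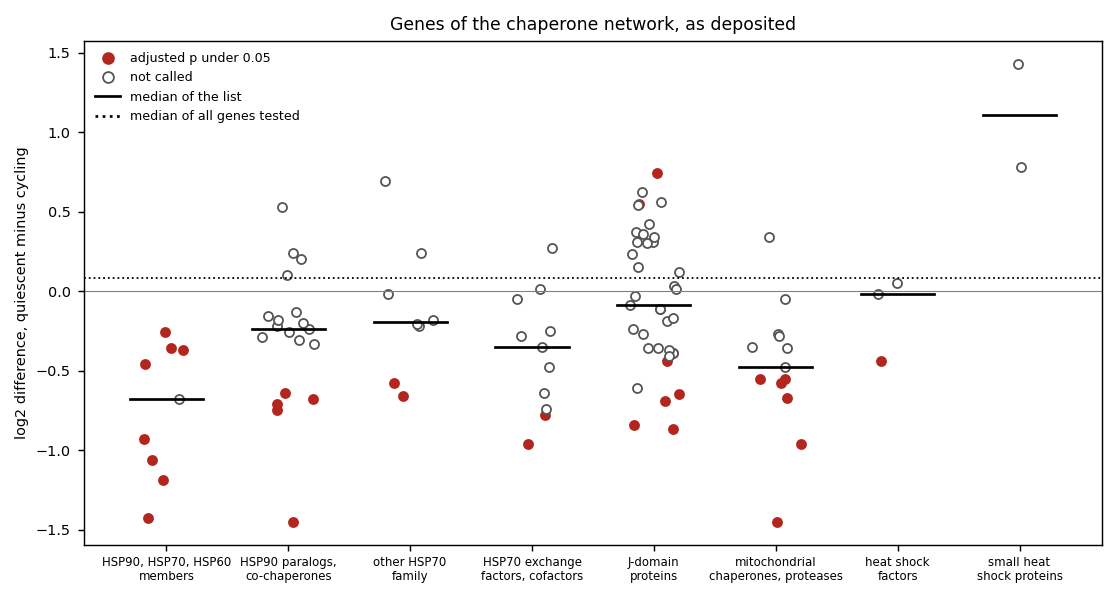
Log2 difference (quiescent minus cycling) of each gene tested in the chaperone list and the related lists, arrays as deposited; filled points were called, short lines mark list medians and the dotted line marks the median of all genes tested. The median of the 9 chaperone genes is -0.68, against -0.48 for mitochondrial chaperones and proteases and -0.09 for J-domain genes.

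The genes whose pattern over the 8 arrays was most like the mean of the 9 chaperones were POLR3B (r = 0.996), CHAF1A (0.994), YEATS4 (0.994), ASCC3 (0.993) and CDK1 (0.992). These correlations include the difference between the fractions and are given as a description. CDK1, the mitotic kinase, differed by -2.81, and the others differed by -1.30 to -0.77.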

How the data were processed

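Gene expression was measured on 4 quiescent and 4 cycling arrays, grouped by sample titles. Per the labels' protocols, RNA was extracted with Trizol and 30 ng was labelled in the one-cycle Affymetrix way. MAS5 made the values, per the submitters' processing notes, with no version stated there. The deposited values are linear intensities, and the values show that the authors scaled them to a trimmed mean of 500.1. Present calls were not used, so dim values may be background.

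A floor of 1 was set on the deposited intensities before log2. Gene names come from the platform annotation, and some may be old. Each gene was represented by its brightest probe set, and genes under a mean intensity of 83.3 (the median non-control probe set) were left out. Differences are quiescent minus cycling from lmFit and eBayes (trend, robust) of limma 3.58.1 in R 4.3.3, with Benjamini-Hochberg adjustment over 11678 genes and a threshold of 0.05. Probe sets were also tested singly. Contrasts used two-sided exact permutation tests over 70 assignments. The script was tested on simulated data. Python 3.11.15 with pandas 2.3.3 and matplotlib 3.10.9 made tables and figures.

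The members and lists were chosen with earlier results of these data known. Arrays were kept at the deposited scaling, because the median probe set is dim; an earlier analysis centred them. Of 7 planned contrasts, 1 needed HSPA8 and was not run. All 10 listed genes are named whatever their result. Of each related list, every gene is named where 5 or fewer passed the filter, otherwise the 2 largest called changes each way. The 5 genes most like the members' mean and MKI67, TOP2A, CCNB1, HSF1 and HSF2 are also named. Alternatives were other scalings, filters and probe set rules, plain eBayes, 32 added before log2, a replicate block and single arrays left out.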

Additional observations from a re-analysis of the deposited data

Results flagged for a closer look

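In each of 18 groups of 4 arrays (9 genes in 2 fractions), the gap between an extreme array and its nearest neighbour was set against the whole range on the log2 scale. Chance flags about 1 in 20 such groups. HSP90AA1 on quiescent array 1 (27801, the other quiescent arrays at 32922 to 33875) had a gap of 0.856 of the range. CHORDC1 on quiescent array 2 (4195, the other quiescent arrays at 2486 to 2604) had a gap of 0.911. Both exceed Dixon's critical value for 4 samples. The HSP90AA1 and CHORDC1 calls held with each array left out in turn, with log2 differences of -0.42 to -0.31 and of -1.11 to -0.86.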

How the results depend on the processing

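The difference of every chaperone gene stayed negative under all alternatives except CHORDC1 with all passing probe sets averaged (0.01). Averaging left 4 of the 9 genes called lower and plain eBayes left 5, beside 1596 and 1561 of 11678 genes. Averaging also turned the contrast of HSP90AA1 minus HSP90AB1 to 0.08, of FKBP4 minus HSP90AB1 to 0.24 and of CHORDC1 minus HSP90AB1 to 0.60. Centring gave 327 genes higher and 3795 lower among all tested. Related genes called lower were 46 with centring and 34 with the replicate block, beside 32.5% and 19.1% of all genes. Related genes called higher were 0 with centring, 4 with quantile normalization, the 75th percentile filter or averaged probe sets, 7 with the replicate block, and 1 without a filter or with plain eBayes.

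With single arrays left out, 945 to 1697 genes were called higher (945 without quiescent array 3) and 1419 to 1900 lower. Members called lower were 6 to 8 and called higher 0. Related genes called higher were 0 to 4 and called lower 11 to 23 (11 without cycling array 4). Contrasts ran from -1.25 to -1.07 for HSPE1 minus HSPD1, -0.83 to -0.64 for HSPA4L minus HSPA4, -0.78 to -0.62 for FKBP4 minus HSP90AB1, -0.84 to -0.44 for CHORDC1 minus HSP90AB1, -0.11 to 0.07 for HSP90AA1 minus HSP90AB1 and -0.44 to 0.12 for HSPH1 minus HSPA4. Without quiescent array 2 the first 4 of these passed (exact permutation, adjusted p = 0.0429). Differences turned to 0.07, 0.03, 0.01 and 0.01 for HSP90AA1 minus HSP90AB1 without quiescent array 1, quiescent array 4, cycling array 2 or cycling array 4, and to 0.12 for HSPH1 minus HSPA4 without quiescent array 1. The quiescent minus cycling differences of the log2 ACTB and GAPDH ratios ran from 0.47 to 0.63 and 0.13 to 0.19. Their adjusted exact permutation p stayed at 0.0286 in 6 of 8 fits for ACTB and 4 of 8 for GAPDH. In the others it was 0.0571 to 0.0857. Without both number 1 arrays these ratio differences were 0.57 and 0.13 (exact permutation p = 0.1, the smallest possible). In that setting HSP90AA1 minus HSP90AB1 was 0.06 and HSPE1 minus HSPD1 was -1.05. The HSPE1 contrast was -0.50 with the second brightest HSPD1 probe set.

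Same-numbered arrays of the fractions correlated in their deviations at 0.344, 0.196, 0.11 and 0.036, all positive. No label states that same-numbered samples belong together, so the main fit left the numbers out. The replicate block called all 9 chaperone genes lower, HSPH1 at an adjusted p of 5.63e-04 by limma, beside 2232 genes lower and 2002 higher; quiescent arrays 3 and 4 did not correlate best with their own number. The causes were not tested. Dim probe sets and 4 arrays a fraction limit what could be seen.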

Other observations

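Among the 9 chaperone genes, deviations from the fraction means over the 8 arrays differed between genes. They are given as correlations with no test, since all arrays share a cell line and a scaling. HSPE1 and HSPD1 varied together (r = 0.79), as did HSPE1 and FKBP4 (0.77), HSPD1 and FKBP4 (0.74), and HSP90AB1 and HSPE1 (0.72). HSPA4L and CHORDC1 formed another pair (0.88), and HSP90AB1 and HSPA4L ran in opposite directions (-0.77). Among quiescent arrays, array 2 was the highest for CHORDC1 (4195) and HSPA4L (292) and the lowest for HSP90AB1 (22920). How far these correlations rest on that array was not tested. Among 87 related genes, the deviations of HSPH1 were most like those of HSPA14 (0.98), BAG2 (0.96), HSPA2 (0.95), BAG3 (0.93) and DNAJB4 (0.93). HSPA2, a testis-rich HSP70, measured 585, 1696, 886 and 1106 in quiescent samples 1 to 4 and 586, 1567, 1026 and 1089 in cycling samples 1 to 4, and was not called (log2 difference -0.02, limma adjusted p = 0.973).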
